A study of Rattus norvegicus with 6 samples.

Results

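Arginine is the shared substrate of competing enzymes, and the genes that handle it and the polyamines made from it were followed through the cells of the rat pons after an infarct. The members are Arg1 (ENSRNOG00000013304), Arg2 (ENSRNOG00000053811), Nos2 (ENSRNOG00000057443), Slc7a2 (ENSRNOG00000011016), Odc1 (ENSRNOG00000005424), Sat1 (ENSRNOG00000003809) and Ass1 (ENSRNOG00000008837). They were chosen by gene symbol, 7 of the 25399 genes in the files, and all 7 were detected. In the kept cells they held 38438 UMIs for Arg1, 289 UMIs for Arg2, 5638 UMIs for Nos2, 1482 UMIs for Slc7a2, 21347 UMIs for Odc1, 208505 UMIs for Sat1 and 2618 UMIs for Ass1, where a UMI is 1 counted molecule. UMIs are counted at the 3′ end, so no level is set against that of another gene as an amount of protein or enzyme.

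Arginase splits arginine into urea and ornithine, while nitric oxide synthase turns it into nitric oxide and citrulline, from which arginine can be rebuilt. Ornithine decarboxylase makes putrescine from ornithine, the first step to spermidine and spermine, and acetylation by the Sat1 enzyme starts their breakdown. In rodent macrophages, high Arg1 and high Nos2 are the textbook marks of alternative and classical activation.

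Brain cells of Sprague Dawley rats, labelled postnatal day 21, were sequenced singly in 3 libraries with pontine infarction and 3 sham libraries. The tissue is given as the pons after stroke in the series title, and the time after infarction is not given in the sources used here. The treatment note speaks of 3 rats with infarction and ties none to a library, so p-values measure the spread between libraries, which may be technical. The comparison asks which cells carry these transcripts after infarction and how their levels differ from sham.

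Of 44011 barcodes 37843 were kept, 5868, 7255 and 5941 in infarction 1 to 3 and 5904, 6327 and 6548 in sham 1 to 3. The median UMIs per kept cell were 7774 to 9562 in infarction libraries and 7281 to 7716 in sham libraries. The median mitochondrial share was 5.59% to 7.81% in infarction and 9.66% to 10.2% in sham, and 177 kept barcodes occurred in several libraries. Clustering without the members or their wider pathway gave 30 clusters, of which 26 were named from markers in 18 classes, written here as X-like, and 4 stayed unnamed. The groups held different cells: infarction libraries had 4965 infiltrating macrophage-like, 2307 monocyte-like and 4430 neutrophil-like cells, against 0, 28 and 69 in sham. All 6765 smooth muscle-like cells were in sham libraries.

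Summed over all cells of a library, 6 of the 7 members were called higher after infarction, with the largest fold in Arg1, and none was called lower. The 6 include Nos2, whose call is limited below by the filter on low counts. Arg1, the cytosolic arginase, had 273, 154 and 195 CPM (UMIs scaled to the total of the cells summed) in infarction 1 to 3, against 0.465, 0.191 and 0.314 CPM in sham 1 to 3. Nos2, the inducible nitric oxide synthase, had 46.3, 23.1 and 21.8 CPM in infarction and 0.0388, 0.127 and 0.0785 CPM in sham. Every infarction library lay far above every sham library for both genes, and the sham levels rest on 52 UMIs of Arg1 and 14 of Nos2. By edgeR's quasi-likelihood test with Benjamini-Hochberg adjustment over all genes, Arg1 rose by 9.81 ± 0.46 (log2 fold change ± SE, 3 libraries against 3; adjusted p = 1.97e-05). Each SE of an edgeR fold is the absolute log2 fold change divided by the square root of the test's F statistic. Nos2 rose by 8.94 ± 0.57 in the same edgeR fit (adjusted p = 4.85e-05). It passed the filter on low counts through the infarction libraries alone, so its call is read no further and its levels are a description. Of all 14614 genes tested, 71.4% were called and 33.3% were called higher and 38.2% lower, so a call over all cells was common. Called genes were 46.6% higher ones with TMM scaling and 30.03% without it, where the median log2 fold change of all genes was -0.13 and -0.60. In such sums, more cells of a type and more RNA per cell cannot be told apart.

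Sat1, the acetyltransferase that starts polyamine breakdown, had 989.5, 879 and 968 CPM in infarction and 161, 168 and 277 CPM in sham, a rise of 2.70 ± 0.23 (log2; edgeR, adjusted p = 0.000139). Ass1, which joins citrulline to aspartate on the way back to arginine, had 9.02, 15.6 and 12.9 CPM in infarction and 2.04, 1.67 and 1.65 CPM in sham, a rise of 3.27 ± 0.24 (edgeR, adjusted p = 6.69e-05). Neither gene's groups overlapped. Arg2, the mitochondrial arginase, had 2.25, 0.884 and 0.576 CPM in infarction and 0.291, 0.509 and 0.275 CPM in sham. Its groups did not overlap either, and it rose by 2.26 ± 0.62 (edgeR, adjusted p = 0.0175), a call lost without sham 1 (adjusted p = 0.0589), and without infarction 1 the rise was 1.47 (edgeR, adjusted p = 0.03103). Slc7a2, a cationic amino acid transporter that brings arginine into cells, had 6.04, 3.47 and 3.36 CPM in infarction and 4.61, 3.15 and 4.94 CPM in sham. The Slc7a2 groups overlapped, and its fold of 0.50 ± 0.33 was not called by edgeR (adjusted p = 0.213).

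Odc1, ornithine decarboxylase, had 82.6, 79.6 and 67.4 CPM in infarction and 42.7, 62.6 and 19.9 CPM in sham, a rise of 1.34 ± 0.40 over all cells (log2; edgeR, adjusted p = 0.0242). The groups did not overlap, but the call was lost without infarction 1, infarction 2 or sham 1 (edgeR, adjusted p = 0.06096 to 0.0671), without TMM scaling (0.0866) and with at most 10% mitochondrial UMIs (0.104). Choroid plexus-like cells, of the tissue that makes cerebrospinal fluid, held 61.8%, 76.5% and 6.601% of the Odc1 UMIs of sham 1 to 3. They were 0, 2 and 2 cells in infarction 1 to 3 and 184, 385 and 17 cells in sham 1 to 3. Without these cells, Odc1 stood at 82.6, 79.6 and 67.3 CPM in infarction and at 18.95, 19.5 and 18.7 CPM in sham, where the sham libraries lay close together, and the rise was 2.39 (edgeR, adjusted p = 1.64e-05).

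**Figure D1:**
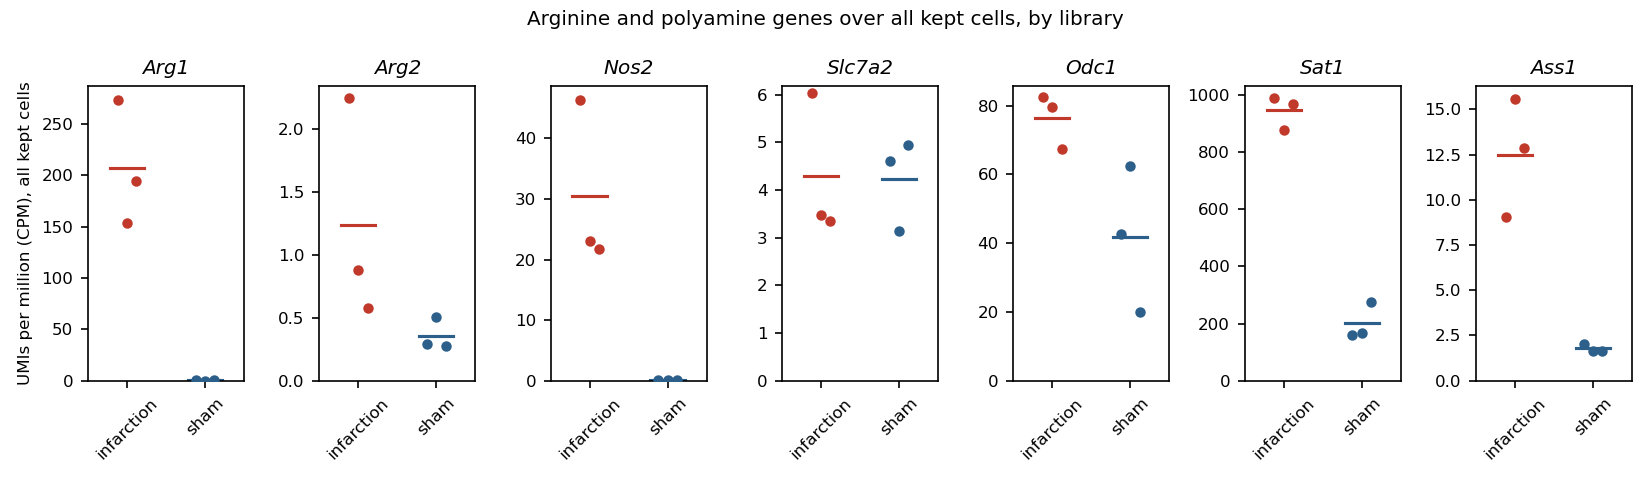
Level of each member over all kept cells in CPM, with 1 point for each library and a line at the mean of 3 libraries, infarction left and sham right. Arg1 and Nos2 lie near 0 in sham, the Slc7a2 groups overlap, and the sham points of Odc1 spread from 19.9 to 62.6 CPM.

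Within the infarction libraries, Arg1 and Nos2 were highest in different myeloid cells. Arg1 had 402, 235 and 261 CPM in infarction 1 to 3 in the infiltrating macrophage-like cells, whose largest cluster was led by Apoc1, Spp1 and Fabp4, and 344, 193 and 286 CPM in the monocyte-like cells. The ranges of these classes overlapped, and the fold between them was -0.092 ± 0.16 (log2, infiltrating macrophage-like over monocyte-like; edgeR with the library as a block, adjusted p = 0.662). This does not show equal levels: with clusters drawn at resolution 0.5 or 2.0, with the members kept in the clustering, or with at most 10% mitochondrial UMIs, edgeR called the infiltrating macrophage-like cells lower, by -1.31, -0.75, -1.45 and -1.22 log2 units. Nos2 was highest in the neutrophil-like cells, with 376, 429 and 448 CPM, where Arg1 had 6.06, 2.58 and 2.69 CPM. The infiltrating macrophage-like cells were higher in Arg1 than the neutrophil-like cells, by 5.66 ± 0.28 (log2; edgeR, adjusted p = 4.2e-11; 72.8% of genes called). They were lower in Nos2, with a fold of -6.66 ± 0.28 (edgeR, adjusted p = 2.95e-10).

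The monocyte-like cells carried both transcripts. Nos2 had 9.41, 2.795 and 5.81 CPM in infiltrating macrophage-like cells and 46.7, 24.6 and 28.3 CPM in monocyte-like cells of infarction 1 to 3, with no overlap, a fold of -2.73 ± 0.27 (log2; edgeR, adjusted p = 1.45e-06; 50.4% of genes called). At resolution 0.5 the fold was -4.19. In the monocyte-like cells the 12 neutrophil markers summed to 2.16%, 1.24% and 1.17% of their neutrophil-like level in infarction 1 to 3, and Nos2 stood at 12.4%, 5.72% and 6.304% of its own. All 12 markers had a UMI there in infarction 1, Ngp and Retnlg were at 0 in infarction 2, and Mmp8, Ngp and Retnlg were at 0 in infarction 3. Ngp was also at 0 in the neutrophil-like cells of infarction 3. The part of neutrophil transcripts in the Nos2 level of monocyte-like cells was not tested.

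**Figure D2:**
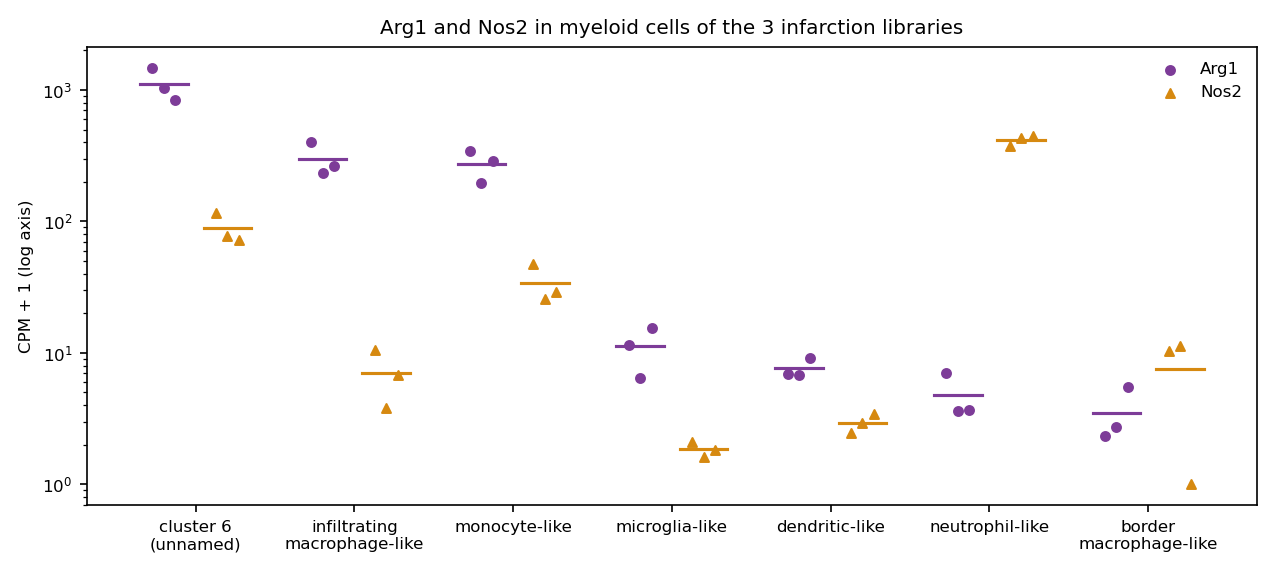
Arg1 and Nos2 in myeloid classes and the unnamed cluster 6 of the 3 infarction libraries, in CPM on a log axis, with 1 point for each library. Arg1 lies above Nos2 in infiltrating macrophage-like and monocyte-like cells and in cluster 6, and Nos2 lies above Arg1 in neutrophil-like cells.

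The highest Arg1 level was in a small cluster that took no name, cluster 6, which was picked out after its values were seen and is described with no test. It held 296, 170 and 155 cells of infarction 1 to 3 and none of sham, and its leading genes were Cxcl3, F13a1, Pf4 and Arg1 itself. It met 7 of the 8 markers of its best-matched class, and the monocyte-like cluster met 8 of 8. It took no name because F13a1 and Pf4, of the border macrophage list, were among its top genes. The comparison of infiltrating macrophage-like with monocyte-like cells leaves it out. In cluster 6 Arg1 had 1475, 1044 and 841 CPM, above the infiltrating macrophage-like and monocyte-like cells in each library. Nos2 had 115, 77.1 and 71.1 CPM, between the monocyte-like and the neutrophil-like cells. Slc7a2 had 30.8, 26.1 and 15.7 CPM there and 12.8, 12.05 and 8.08 CPM in neutrophil-like cells. With each cell thinned to 2000 UMIs, an Arg1 UMI was found in 61.9% to 74.5% of cluster 6 cells, 29.6% to 40.8% of infiltrating macrophage-like cells and 22.5% to 36.4% of monocyte-like cells. In T cell-like cells, which should lack Arg1, the share was 0% to 1.09%, and the median UMIs per cell before thinning were 5089 to 5666 there, 9379.5 to 11050.5 in cluster 6, 13081 to 16483 in infiltrating macrophage-like and 8596 to 11160 in monocyte-like cells.

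The share of Arg1 in the sum of Arg1 and Nos2 UMIs puts the split in 1 value for each class. It was 97.7% to 98.8% in infiltrating macrophage-like cells, 92.2% to 93.1% in cluster 6, 88.03% to 91.004% in monocyte-like cells and 0.597% to 1.59% in neutrophil-like cells of the infarction libraries. Over all kept cells it was 85.5%, 86.9% and 89.9% in infarction and 92.3%, 60% and 80% in sham, where it rests on few UMIs. The groups overlapped, and by exact permutation of the library labels, two-sided, p was 0.4 for a difference of 10.02 percentage points, with 0.1 the smallest p that 3 libraries against 3 allow. Over the myeloid classes together it was 82.8%, 85.5% and 89.7% in infarction and 0%, 12.5% and 0% in sham, where it rests on 0, 1 and 0 Arg1 UMIs and 2, 7 and 4 Nos2 UMIs. Those groups did not overlap and differed by 81.8 percentage points (exact permutation, two-sided, p = 0.1), but the myeloid sum held no infiltrating macrophage-like cell in sham. It also left out the unnamed cluster 6 of the infarction libraries. The few sham Arg1 UMIs lay largely outside the myeloid classes: fibroblast-like cells had 11.6, 8.07 and 9.74 CPM and oligodendrocyte precursor-like cells 10.5, 4.44 and 8.29 CPM in sham 1 to 3. These levels rest on 11, 5 and 5 UMIs in fibroblast-like and 6, 2 and 5 UMIs in oligodendrocyte precursor-like cells.

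Single barcodes could hold both transcripts. Among monocyte-like cells with a Nos2 UMI after thinning, 50.7%, 34.8% and 51.5% also held an Arg1 UMI in infarction 1 to 3, against 33.05%, 21.1% and 28.1% of those with none. Among infiltrating macrophage-like cells the shares were 61.9%, 50% and 67.6% with a Nos2 UMI and 37.4%, 27.8% and 31.1% with none, on only 13, 8 and 23 cells with both and 8, 8 and 11 with Nos2 alone. In cluster 6 they were 82.7%, 56.5% and 77.8% with and 72.3%, 66.2% and 57.8% with none. In neutrophil-like cells they were 1.28%, 0.926% and 0.503% with and 0.914%, 0% and 0.948% with none. The share with Arg1 was higher beside Nos2 in 3 of 3 libraries of the monocyte-like and infiltrating macrophage-like cells and in 2 of 3 in cluster 6, where infarction 2 lay the other way. These shares of cells are given with no test. Nos2 was low in infiltrating macrophage-like cells, at 9.41, 2.795 and 5.81 CPM, beside 376, 429 and 448 CPM in neutrophil-like cells of infarction 1 to 3. The part of RNA from other cells or of doublets (mixed cells in a single barcode) in these shares was not tested.

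Among the myeloid classes of the infarction libraries Arg2 was highest in neutrophil-like cells, with 0.297, 0.236 and 0.1798 CPM in infiltrating macrophage-like cells and 23.6, 16.8 and 10.2 CPM in neutrophil-like cells of infarction 1 to 3. The fold was -6.53 ± 0.36 (log2, infiltrating macrophage-like over neutrophil-like, by edgeR, adjusted p = 4.32e-13). Arg2 passed the filter on low counts through the neutrophil-like cells alone, so this call is read no further. By level, the 2 arginase transcripts were highest in separate classes. The infiltrating macrophage-like level of Arg2 rests on 6 UMIs in each library. In endothelial-like cells Arg2 had 4.33, 11.6 and 5.84 CPM in sham 1 to 3, on 4, 25 and 4 UMIs. Ass1 had 6.89, 12.5 and 10.1 CPM in infiltrating macrophage-like cells and 33.6, 57.9 and 47.97 CPM in monocyte-like cells, a fold of -2.48 ± 0.15 (edgeR, adjusted p = 2.99e-13), and the ranges did not overlap. Asl, the enzyme of the next step, which releases arginine, had a fold of -2.20 ± 0.18 between the same classes (edgeR, adjusted p = 2.49e-08). Slc7a2 in sham libraries had 15.9, 20.99 and 42.8 CPM in fibroblast-like, 11.01, 10.5 and 8.23 CPM in astrocyte-like and 5.62, 4.91 and 6.02 CPM in smooth muscle-like cells.

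Across the 15 pairs of 6 myeloid classes, 70 of 105 tests of a member were called by edgeR, beside 55.7% of all tests of a gene and pair. The tests of Arg2 are among the 105, though it passed the filter through neutrophil-like cells alone. Odc1 had 93.3, 86.9 and 70.3 CPM in infiltrating macrophage-like, 64.5, 50.9 and 46.7 CPM in monocyte-like and 45.9, 30.98 and 31.8 CPM in neutrophil-like cells. Sat1 had 1769, 1769 and 1665 CPM in neutrophil-like cells, 783, 765 and 949 CPM in infiltrating macrophage-like cells and 485, 453 and 549 CPM in dendritic-like cells. The infiltrating macrophage-like cells were lower in Sat1 than the microglia-like cells, with a fold of -0.49 ± 0.10 (log2; edgeR, adjusted p = 0.0002897; 61.9% of genes called). At resolution 0.5 that fold was -0.22 and lost its call (edgeR, adjusted p = 0.0661).

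The polyamine genes Odc1 and Sat1 were higher after infarction within classes that both groups held. Of 13 tests of a member in the 5 classes with at least 20 cells in every library, 10 were called, all as higher: Odc1 in 5 classes, Sat1 in 4 and Arg1 in microglia-like cells. Odc1 and Sat1 passed the filter on low counts in both groups of each class, while Arg1 passed it through infarction alone, so its call is read no further. Of all genes tested, 64.3% were called in microglia-like, 22.5% in border macrophage-like, 27.8% in oligodendrocyte precursor-like, 10.3% in endothelial-like and 7.78% in T cell-like cells. The other 22 pairs of member and class fell under the filter on low counts. Of the 7 members, 3 had a promoter in the RefSeq table, and those of Odc1 and Sat1 are shown because these were the 2 members called in several classes, as the 250 bases before the start of each gene in RefSeq (build GRCr8), Odc1 at chr6:46058415-46058664 and Sat1 at chrX:44007839-44008088, both on the plus strand. Capitals mark TGACG on either strand, the core of the cAMP response element.
Odc1: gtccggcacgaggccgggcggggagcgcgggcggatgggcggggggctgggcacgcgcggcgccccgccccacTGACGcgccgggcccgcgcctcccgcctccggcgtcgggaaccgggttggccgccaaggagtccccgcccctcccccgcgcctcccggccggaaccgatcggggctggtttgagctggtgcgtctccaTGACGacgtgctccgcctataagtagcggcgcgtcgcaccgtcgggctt
Sat1: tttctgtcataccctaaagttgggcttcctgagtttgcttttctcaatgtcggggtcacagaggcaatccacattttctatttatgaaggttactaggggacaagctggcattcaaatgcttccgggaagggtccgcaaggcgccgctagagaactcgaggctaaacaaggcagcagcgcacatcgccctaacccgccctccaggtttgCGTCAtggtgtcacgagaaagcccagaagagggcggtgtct
The Odc1 window held TGACG 177 and 49 bases before the start, and the Sat1 window held it on the minus strand 41 bases before the start. Of 33469 rat promoters of this length, 18.2% held these letters on either strand. The GC box GGGCGG occurred 5 times in the Odc1 window and 2 times in the Sat1 window, and 30.5% of promoters held it. The full element TGACGTCA, which contains TGACG, was in neither window and in 1.59% of promoters, and the E-box CACGTG was in neither and in 5.59%. Matches of TGACG and GGGCGG did not overlap, and a match describes letters only.

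In microglia-like cells, the resident macrophages of the brain, Odc1 had 88.8, 82.7 and 78.3 CPM in infarction and 9.73, 15.9 and 13.4 CPM in sham. The groups lay far apart, and Odc1 rose by 2.60 ± 0.14 (log2; edgeR, adjusted p = 4e-07), where 32.4% of 10498 genes were called higher and 31.9% lower. Sat1 had 1489, 1415 and 1553 CPM in infarction and 545, 428 and 562 CPM in sham, a rise of 1.52 ± 0.10 with no overlap (edgeR, adjusted p = 1.79e-06). Slc7a2 had 2.703, 1.44 and 3.18 CPM in infarction and 1.39, 1.31 and 1.51 CPM in sham and was not called (edgeR, adjusted p = 0.1201), though it was without infarction 2 (adjusted p = 0.0331). Different clusters held most of the class: clusters 4, with cycling genes, 9 and 11 held 3488 of 3610 infarction cells, while cluster 12, led by Tmem119 and P2ry12, held 2303 of 3318 sham cells. Within cluster 9, of 1503 infarction and 176 sham cells, Odc1 rose by 1.48 ± 0.24 (edgeR, adjusted p = 0.000268; 30.5% of genes called). Sat1 had a fold of 0.43 ± 0.23 in that cluster and was not called (edgeR, adjusted p = 0.219). Within cluster 11 both rose, Odc1 by 1.65 ± 0.30 and Sat1 by 1.14 ± 0.14 (edgeR, adjusted p = 9.08e-05 and 4.58e-07, where 45.4% of genes were called). That cluster was shallow, with median UMIs per cell of 1590 to 2507 in infarction and 889 to 970 in sham libraries. Its sham cells held only 100870 to 552192 UMIs per library, which limits precision for Odc1.

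Arg1 was low in microglia-like cells, with 10.5, 5.45 and 14.6 CPM in infarction and 0, 0.164 and 0 CPM in sham, or 366 UMIs against 1. The pooled ratio was 178, with a 95% exact interval of 31.8 to 7051 that covers counting error only. The interval is no test of the groups, since UMIs of 1 cell or library are not independent. The infarction UMIs came from 36, 31 and 39 cells of infarction 1 to 3. Cluster 4, of 861 infarction and 23 sham cells, had 18.8, 11.9 and 28.5 CPM in those libraries. Cluster 9 had 2.23, 1.25 and 3.25 CPM there. Without cluster 4 the class held 51 infarction UMIs and 1 sham UMI, a ratio of 43.2 (7.404 to 1737). Beside it, the 9 infiltrating macrophage markers in the files summed to 13209, 7798 and 10806 CPM in infarction and 41.2, 77.7 and 40.6 CPM in sham, with Mmp12 at 0 in each sham library. In infarction the markers stood at 29.3%, 24.6% and 31.4% of their level in infiltrating macrophage-like cells and Arg1 at 2.62%, 2.32% and 5.58%. The part of such cells in this result was not tested. Nos2 had 1.11, 0.605 and 0.8201 CPM in infarction microglia-like cells and was at 0 in sham ones.

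In border macrophage-like cells, of the meninges and vessel surroundings, Sat1 had 1342, 1373 and 1498 CPM in infarction and 703, 789 and 663 CPM in sham. The groups did not overlap, and Sat1 rose by 1.01 ± 0.15 (log2; edgeR, adjusted p = 3.19e-05). Odc1 had 63.8, 36.01 and 108 CPM in infarction and 32.97, 24.6 and 47.1 CPM in sham. The Odc1 groups overlapped, and its rise of 0.99 ± 0.33 (edgeR, adjusted p = 0.0462) lost its call without infarction 1, infarction 3, sham 1 or sham 2 (adjusted p = 0.0975 to 0.147), with DESeq2 (0.05897) and without TMM scaling (0.0863). The response of Odc1 was larger in microglia-like than in border macrophage-like cells, by 1.56 ± 0.42 log2 units (interaction term in edgeR, adjusted p = 0.0296; 14.6% of genes called). That call was lost without infarction 1, sham 1 or sham 3 (adjusted p = 0.124 to 0.154). For Sat1 the difference was 0.40 ± 0.16 and was not called (edgeR, adjusted p = 0.106), but it was called at resolution 2.0 and with no doublet removal (adjusted p = 0.0424 and 0.0235).

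Outside the myeloid classes, Odc1 rose in oligodendrocyte precursor-like, T cell-like and endothelial-like cells. In oligodendrocyte precursor-like cells, which divide and give rise to myelin-forming cells, it had 201, 223 and 145 CPM in infarction and 31.6, 44.4 and 43.1 CPM in sham, a rise of 2.52 ± 0.30 (log2; edgeR, adjusted p = 0.0009495). In endothelial-like cells, which line vessels, it had 118, 76.7 and 152 CPM in infarction and 45.4, 30.97 and 29.2 CPM in sham, a rise of 1.90 ± 0.26 (edgeR, adjusted p = 0.000286). In T cell-like cells it had 469, 311 and 161 CPM in infarction and 64.3, 50.8 and 49.2 CPM in sham. The groups did not overlap in any of the 3 classes, but in T cell-like cells the rise of 2.53 ± 0.44 (edgeR, adjusted p = 0.0251) lost its call without infarction 2 or any 1 sham library and with at most 10% mitochondrial UMIs (adjusted p = 0.06603 to 0.111). Called genes were 50.6% higher ones with TMM scaling and 32.2% without it in oligodendrocyte precursor-like cells, and 46.7% and 28.1% in endothelial-like cells.

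**Figure D3:**
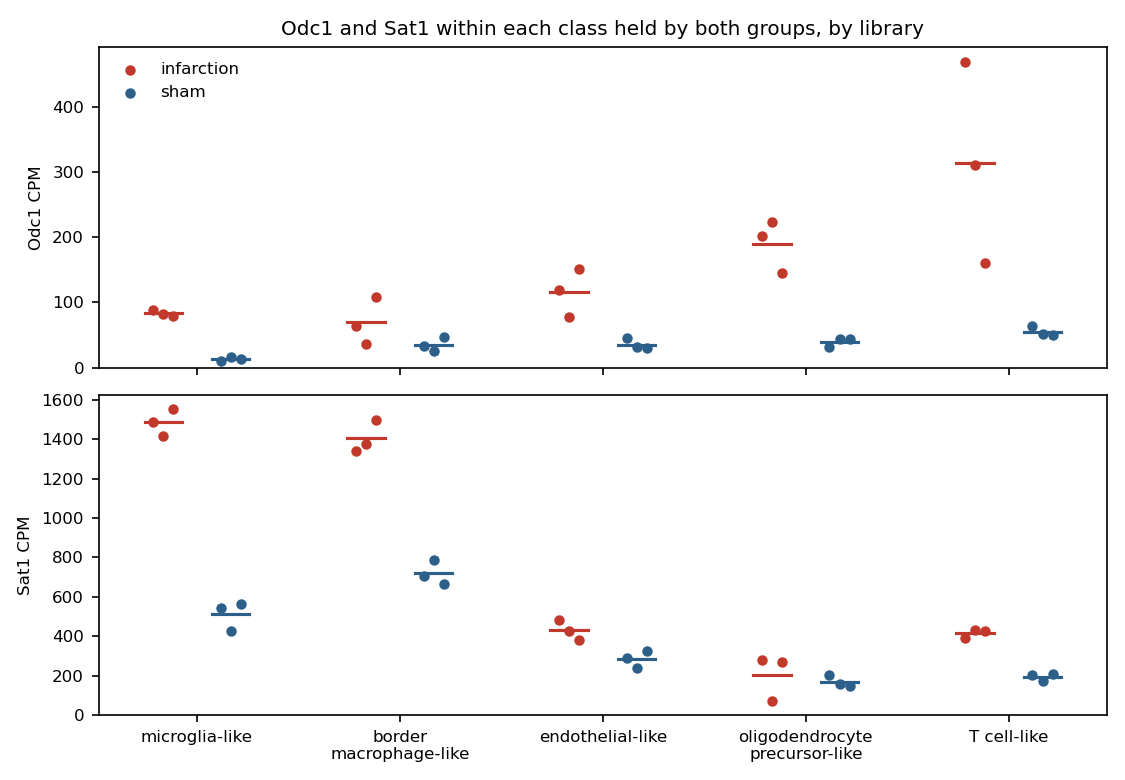
Odc1 and Sat1 in CPM within the 5 classes held by both groups, with 1 point for each library and a line at the mean of 3, infarction left of sham. The groups overlap for Odc1 in border macrophage-like cells and for Sat1 in oligodendrocyte precursor-like cells, and nowhere else.

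Sat1 in T cell-like cells had 391, 431 and 425 CPM in infarction and 203, 171 and 209 CPM in sham, a rise of 1.15 ± 0.15 (log2; edgeR, adjusted p = 5.38e-05). In endothelial-like cells it had 485, 428 and 382 CPM in infarction and 288, 239.9 and 324 CPM in sham, a rise of 0.76 ± 0.18 (edgeR, adjusted p = 0.0123) that lost its call without infarction 1 or sham 2 (adjusted p = 0.0734 and 0.0642). In oligodendrocyte precursor-like cells it had 277, 69.2 and 268 CPM in infarction and 204, 155 and 146 CPM in sham. These groups overlapped, with infarction 2 lowest of all, and the edgeR test did not call it (adjusted p = 0.418), though it did without infarction 2 (adjusted p = 0.0245). Markers of other classes were also higher in infarction. In endothelial-like cells the 9 infiltrating macrophage markers summed to 1841, 4891 and 987 CPM in infarction and 71.4, 217 and 26.3 CPM in sham. In T cell-like cells they summed to 587, 372 and 516 CPM in infarction and 31.1, 27.1 and 11.7 CPM in sham. In oligodendrocyte precursor-like cells the 12 neutrophil markers summed to 1389, 14.8 and 1230.4 CPM in infarction and 0, 0 and 1.66 CPM in sham. Their part in the levels was not tested.

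Ass1 in endothelial-like cells lay the other way, with 32.3, 8.08 and 0 CPM in infarction and 105, 41.1 and 59.9 CPM in sham. The groups did not overlap, and the infarction level rests on 11 UMIs. The fold of -2.26 ± 0.91 was not called (log2; edgeR, adjusted p = 0.199), and Ass1 passed the filter on low counts through the sham libraries. It was called with no such filter (fold -2.33, edgeR adjusted p = 0.000768) and with the replicate block (fold -2.36, adjusted p = 0.02399). Without infarction 1 the fold was -4.14, and without infarction 3 it was -1.49.

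The wider pathway was read from 61 further genes, 59 of them in the files. In microglia-like cells 20 of 43 tested genes rose and 12 fell by edgeR, with a median log2 fold change of 0.42, beside -0.02 over all genes tested, of which 32.4% rose and 31.9% fell. The counts of its smaller lists stand beside those same shares. Cluster 4, with cycling genes, had 861 infarction and 23 sham cells. It held 7182642, 4696358 and 4351423 of the 14431106, 13214321 and 9754594 UMIs of the class in infarction 1 to 3. The folds of the wider list are for the whole class, where a change in the mix of clusters and a change within a cluster cannot be told apart. Of 7 genes of polyamine synthesis, Odc1 included, 4 rose and 2 fell. Ahcy, which clears the by-product of methylation, rose by 2.36 ± 0.11, Sms, spermine synthase, by 1.89 ± 0.14 and Mtap, which salvages the spent aminopropyl donor, by 1.71 ± 0.12. Amd1, which makes that donor, was among those that fell (-0.72 ± 0.11). Both tested genes of the antizyme list rose, Oaz1, whose protein sends ornithine decarboxylase to destruction, by 0.97 ± 0.11 and its antagonist Azin1 by 0.71 ± 0.11. Of 4 genes of hypusine, which is made from spermidine on the translation factor eIF5A, 3 rose, Eif5a by 1.62 ± 0.062, Dhps by 1.38 ± 0.079 and Dohh by 1.38 ± 0.088.

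Transport and nitric oxide genes were mixed in microglia-like cells. Of 8 arginine transport genes 3 rose, Slc3a2 by 0.97 ± 0.092, Slc7a1 by 1.88 ± 0.19 and Slc7a6 by 0.64 ± 0.098, and Slc25a29, a mitochondrial carrier, fell (-1.77 ± 0.43). Of 4 breakdown genes Sat1 rose and Smox, spermine oxidase, fell (-0.51 ± 0.11). Gch1, the first enzyme of the nitric oxide synthase cofactor, rose by 2.38 ± 0.34, and Ddah2, known for the breakdown of methylated arginines that inhibit the synthase, fell (-2.25 ± 0.12). Of 6 alternative activation genes 3 rose and 2 fell, and of 14 classical ones 5 rose and 3 fell. Mrc1 of the first list, which is also on the border macrophage marker list, rose by 3.37 ± 0.31 and Ptgs2 of the second by 5.67 ± 0.45 (edgeR, all folds log2 ± SE). The genes of these lists that fell are counted and not named.

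**Figure D4:**
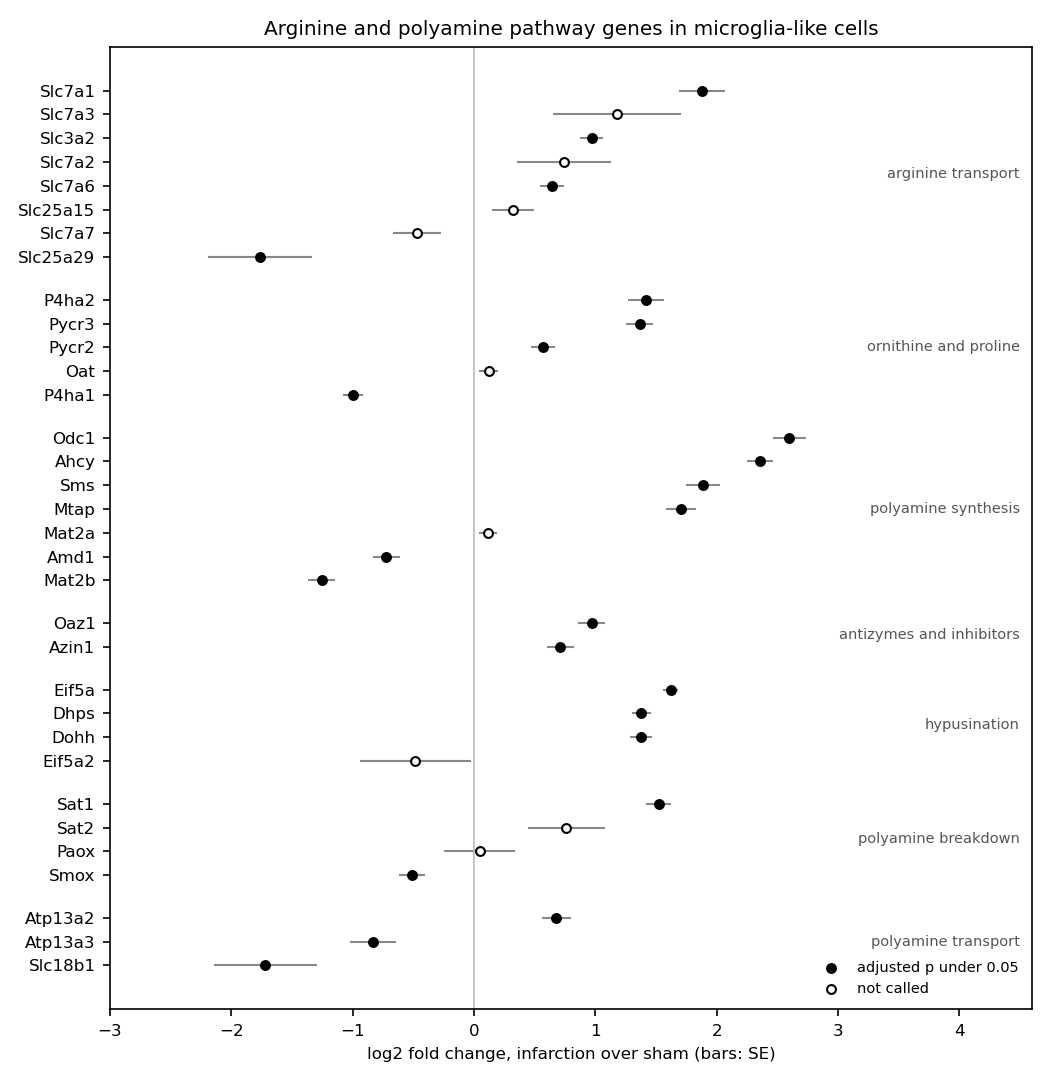
Log2 fold change, infarction over sham, in microglia-like cells for the tested genes of 7 lists of arginine and polyamine metabolism, with bars for the SE and filled points for edgeR calls. Odc1, Ahcy, Sms and Mtap lie right of 0 with Eif5a, Dhps and Dohh, and Amd1, Smox and Slc25a29 lie left of 0.

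Called genes of the wider list were fewer in the other classes: 5 of 29 rose and 1 fell in border macrophage-like, 1 of 30 rose and 3 fell in endothelial-like, 6 of 30 rose and 3 fell in oligodendrocyte precursor-like, and 1 of 21 rose and 0 fell in T cell-like cells. Over all genes tested, 12.1% were called higher and 10.4% lower in border macrophage-like, 4.8% and 5.47% in endothelial-like, 14.1% and 13.8% in oligodendrocyte precursor-like, and 4.86% and 2.92% in T cell-like cells. Oaz1 rose by 0.78 ± 0.16 in border macrophage-like, 1.35 ± 0.25 in oligodendrocyte precursor-like and 0.86 ± 0.18 in T cell-like cells. In oligodendrocyte precursor-like cells Eif5a rose by 1.93 ± 0.28 and Ahcy by 1.67 ± 0.36. In endothelial-like cells Amd1 (-1.80 ± 0.25) and Azin1 (-1.38 ± 0.30) fell. Ddah2 fell in border macrophage-like (-1.04 ± 0.26), endothelial-like (-1.39 ± 0.32) and oligodendrocyte precursor-like cells (-1.62 ± 0.44; all edgeR, log2 ± SE).

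Between infiltrating macrophage-like and monocyte-like cells, 8 of 8 tested genes listed as regulators of Arg1 were lower in the infiltrating macrophage-like cells, among them Hif1a (-1.45 ± 0.10) and Cebpb (-1.20 ± 0.14). The classical activation list had 0 of 15 genes higher and 8 lower (edgeR), beside 24.7% and 25.7% of all genes.

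Within the infiltrating macrophage-like class, cells with an Arg1 UMI were set against cells with none, each thinned to 5000 UMIs. There were 628, 804 and 1005 Arg1-positive and 453, 893 and 948 Arg1-negative cells in infarction 1 to 3. Of 8205 genes other than Arg1, 297 (3.62%) were called by edgeR with the library as a block. Of the 5 other members tested, Nos2 alone was called: it had 15.6, 5.22 and 11.1 CPM in Arg1-positive and 7.95, 2.69 and 4.43 CPM in Arg1-negative cells of infarction 1 to 3. It was higher in 3 of 3 libraries, by 1.16 ± 0.24 (log2; edgeR, adjusted p = 0.000876). The part of RNA from other cells or of doublets in this Nos2 difference was not tested. Ass1 (0.43 ± 0.21), Slc7a2 (0.14 ± 0.35), Sat1 (0.021 ± 0.041) and Odc1 (-0.048 ± 0.080) were not called.

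The 10 called genes with the largest rise in Arg1-positive cells were Plod2, a collagen lysyl hydroxylase (1.49 ± 0.12), F13a1, a clotting factor subunit (1.32 ± 0.097), Pdpn, podoplanin (1.20 ± 0.099), Fbln1, a matrix protein (1.04 ± 0.11), Slc16a3, a lactate exporter (0.93 ± 0.096), Tpi1, a glycolytic enzyme (0.81 ± 0.072), Upp1 (0.69 ± 0.12), Mcemp1 (0.69 ± 0.065), Slc39a8, a zinc transporter (0.67 ± 0.13), and Slc2a1, a glucose transporter (0.67 ± 0.069). Of the proline list P4ha2 and P4ha1, of collagen prolyl hydroxylase, rose by 1.05 ± 0.18 and 0.37 ± 0.080. The 10 with the largest fall were Cd9, a tetraspanin (-1.11 ± 0.092), Tmem176b (-1.01 ± 0.074), Tmem176a (-0.99 ± 0.081), Fcnb, ficolin B (-0.99 ± 0.10), Il1rn, the interleukin-1 receptor antagonist (-0.91 ± 0.099), the complement genes C1qc (-0.90 ± 0.11) and C1qa (-0.87 ± 0.098), Plekho1 (-0.89 ± 0.10), Ccnd1, a cyclin (-0.84 ± 0.17), and St3gal5 (-0.83 ± 0.18). Each of these 20 genes lay the same way in 3 of 3 libraries (edgeR; log2 ± SE). The number of genes called was 675 with no thinning and 175 with cells thinned to 2000 UMIs. The class joins cluster 2 and cluster 3, whose mean Arg1 levels in infarction were 323 and 177 CPM. Within cluster 2 alone, an alternative that was not planned, 344 of 7841 genes were called. The part of cluster identity in the folds of the named genes was not tested.

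**Figure D5:**
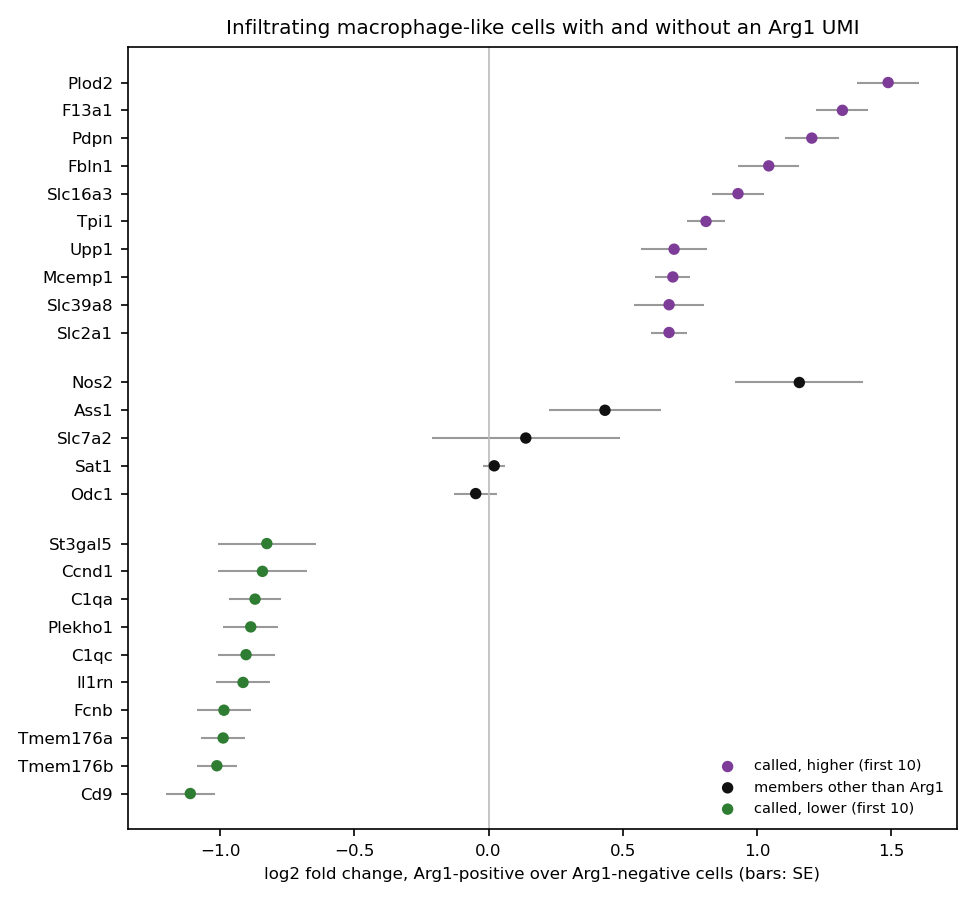
Log2 fold change, Arg1-positive over Arg1-negative infiltrating macrophage-like cells of 3 infarction libraries, thinned to 5000 UMIs. Shown are the 10 genes with the largest rise, the 5 tested members and the 10 genes with the largest fall, with bars for the SE derived from the edgeR test. Nos2 lies at 1.16, and the other members lie between -0.05 and 0.43.

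Over the 30 clusters, the genes whose levels were most like each member were ranked by Pearson's r of log2(CPM + 5) among 10689 genes, as a description over clusters that share libraries. For Arg1 they were Cd300c2 (r = 0.92), Rhbg (0.92), Met (0.90), Cd300le (0.89) and Enpp3 (0.89). For Nos2 they were Clec4e (r = 0.97), Hilpda (0.97), Dpys (0.97), Oscar (0.96) and Fcrlb (0.96). For Sat1 they were Mknk1 (r = 0.91), Zc3h12a (0.84), Vsir (0.84), Sh2b2 (0.83) and Osm (0.83). Likeness was weaker for Ass1, led by Xdh (0.79) and then Slc30a1, Rab11a, Sgms2 and Enpp3, for Slc7a2, led by Akr1b8 (0.77) and then Plod2, Mmp14, Lbp and Prg4, and for Odc1, led by Ezr (0.71) and then Taf10, Cep41, Galk2 and Iqgap2. Arg2 stayed under 20 CPM in every cluster when its libraries were pooled and was not ranked.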

How the data were processed

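The deposited files hold UMI counts that were not normalized, by gene and by barcode, for 3 infarction and 3 sham libraries, made with 3′ v3.1 kits per the labels' protocols. Cell Ranger 3.1.0 is named in the file headers, and the submitters' processing notes also name CASAVA 1.8 and Seurat 2.3.4. The genome build is not given in the sources used here.

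Barcodes with at least 500 UMIs, 200 genes and at most 20% mitochondrial UMIs were kept, and those with a Scrublet doublet score over 0.25 were removed (scanpy 1.11.5), because its automatic threshold marked almost none in 2 libraries. The kept cells of a library held 50978586 to 62882052 UMIs, which limits precision for genes of few UMIs. Cells were clustered (Leiden, 2000 variable genes, 30 components) without the members and the wider list, and named from marker lists, with the scoring rule set afterwards. Counts were summed per library and class and tested with edgeR 4.0.16 (quasi-likelihood, TMM, filterByExpr, Benjamini-Hochberg, adjusted p under 0.05), with DESeq2 1.42.0 as an alternative. The scripts were tested on simulated data.

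All members are named. Of each wider list the called genes with the smallest p, up to 4, could be named, and of Arg1-positive cells the 10 called genes with the highest and lowest fold at 20 CPM or more. Members and lists were chosen with earlier results of these data known. Intervals cover counting error only.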

Additional observations from a re-analysis of the deposited data

Results flagged for a closer look

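The infarction response of Odc1 differed between classes: it was larger in microglia-like than in border macrophage-like cells by 1.56 log2 units (interaction term in edgeR, adjusted p = 0.0296). The call was lost without infarction 1, sham 1 or sham 3 (edgeR, adjusted p = 0.124 to 0.154). Different clusters held most of the microglia-like cells in the groups. Odc1 rose by 1.48 ± 0.24 within cluster 9 and 1.65 ± 0.30 within the shallow cluster 11, against 2.60 ± 0.14 in the class (log2 ± SE, edgeR).

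Ass1 in endothelial-like cells lay lower in infarction, with a difference of means of -55.2 CPM, while the infarction values of microglia-like and border macrophage-like cells lay above sham. In microglia-like cells these rest on 14, 22 and 36 UMIs in infarction and 0, 1 and 1 in sham, and in border macrophage-like cells on 5, 4 and 1 in infarction and 0, 0 and 0 in sham. The border macrophage-like level of infarction 3, 2.24 CPM, is under the 6.73 CPM that a count of 0 allows there, and a count of 0 allows up to 3.51 to 4.12 CPM in sham, so a difference in infarction 3 was not detectable at this depth. The difference between classes was not tested.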

How the results depend on the processing

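Of the 7 members, 6 were called over all cells, and 4 to 6 with 1 library left out. Nos2 among the 6 was tested through the infarction libraries alone. Within classes 10 calls were made, 8 to 11 with 1 library left out, 16 with no filter on low counts and 6 with at most 10% mitochondrial UMIs, where fewer classes could be tested. Between myeloid classes 70 were called, 60 to 73 with 1 library left out and 35 of 42 at resolution 0.5. The class difference was called for 1 member, for 0 to 1 with 1 library left out, and for 2 at resolution 2.0 and 2 with no doublet removal. In microglia-like cells 3 members were called, Arg1 among them, and 1 in cluster 9 alone, an alternative chosen after seeing the data. Arg1-positive cells gave 297 calls, 268 to 279 with 1 library left out, 175 thinned to 2000 UMIs and 675 with no thinning. Cluster 2 alone gave 344. The difference in Arg1 share was 1.301 to 17.5 points with 1 library left out, and infiltrating macrophage-like cells with an Arg1 UMI were 34.5% thinned and 72.4% with no thinning.

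Some folds between classes changed sign where the main or the other setting made a call. At resolution 0.5, Sat1 monocyte over microglia was 0.018. At resolution 2.0, Arg1 in microglia was -1.36 over dendritic, -1.38 over neutrophil and -0.018 over border macrophage. With the members kept in the clustering, Ass1 infiltrating macrophage over dendritic was -0.52, Arg1 microglia over dendritic -3.96, Odc1 microglia over dendritic -0.047 and Odc1 dendritic over neutrophil 0.48. With at most 10% mitochondrial UMIs these were -0.26, -3.77, -0.19 and 1.03, and Odc1 monocyte over dendritic was -0.41. The cause was not tested. Of the other values of single members, 1123 kept their side of the threshold, 68 lost a call and 56 gained one. Some of the 1123 changed sign with a call in neither setting. With no doublet removal, Arg2 infiltrating macrophage over monocyte went from -1.07 to 0.46.

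Libraries of the same replicate number correlated by 0.018, -0.059 and 0.109 in their deviations, and those of different numbers by -0.100 to 0.117. With 3 libraries in each group this shows no pairing by number and cannot exclude it. With the replicate block, 6 members were called over all cells and 11 within classes, Ass1 in endothelial-like cells among them (-2.36, edgeR adjusted p = 0.02399).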
